A study of Mus musculus with 15 samples.

Results

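The genes described here encode 6 salivary secretory products: Dcpp1, Dcpp2, Dcpp3, Muc19, Bpifa2 and Amy1. They were chosen by name, as rows of the deposited count table, because they are known as products of the sublingual and parotid glands, which lie beside the submandibular gland that was sampled. All 6 were found among 21013 gene symbols, and all 6 passed the filter on low counts. Their levels differed by orders of magnitude between libraries of 1 group, and none passed the main test in any comparison.

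The 3 large salivary glands of the mouse make different saliva. The sublingual gland is mainly mucous, with caps of serous cells called demilunes, the parotid gland is serous, and the adult submandibular gland of the male holds serous-like acini and granular convoluted tubules. The Dcpp genes encode the demilune cell and parotid proteins, small secreted proteins of sublingual demilunes and parotid acini. Muc19 encodes the gel-forming mucin of sublingual mucous cells. Bpifa2 encodes parotid secretory protein, a member of the BPI fold family that binds bacterial products, and Amy1 encodes salivary amylase, the starch-digesting enzyme of parotid saliva.

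RNA was sequenced from 15 bulk submandibular gland samples of wild-type male C57BL/6 mice, 8 to 10 weeks old, in 5 groups of 3. They were nontreated glands (NT) and glands that received 15 Gy of radiation to their region and were taken at day 4 (IR_4d) or day 30 (IR_30d). The other 2 groups had the same dose and days, with iEVs given by weekly injection into the gland from day 1 (IR_iEV_4d, IR_iEV_30d). What iEV stands for is not written out in the labels. Vesicles released by mesenchymal stem cells are the subject of the title. No group received iEVs without radiation or an injection without iEVs, so that the injection and the iEVs cannot be told apart. The collection day of the NT glands is not given, so age and irradiation cannot be told apart either. The labels do not say that each sample came from its own mouse, so the p-values measure only the spread between samples, which may be technical. How the gland was separated from its neighbours is not given in the sources used here.

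Total counts ran from 29082798 to 52201098 per library. The submandibular identity of the samples was visible in every library: Egf, a growth factor of the granular convoluted tubules, stood between 21382 and 71940 CPM (counts scaled to 1000000 per library), and Prol1, an acinar secretory product, between 47335 and 75072 CPM. Markers of other tissues also differed between libraries. The summed level of 9 adipose genes ran from 10.3 to 516 CPM and was highest in IR_iEV_4d replicate 2, IR_4d replicate 3 and IR_iEV_4d replicate 1. The leading adipose genes were Car3 (0.157 to 167 CPM), Fabp4, a fatty acid carrier (4.63 to 109 CPM), and Cfd, or adipsin (0.126 to 91.2 CPM). That of 8 skeletal muscle genes was 106 CPM in IR_iEV_4d replicate 2 and at most 5.34 CPM elsewhere. The 4 lymph node genes in the table summed to at most 1.47 CPM. In bulk samples, fewer cells of a type and less RNA per cell cannot be told apart.

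**Figure D1:**
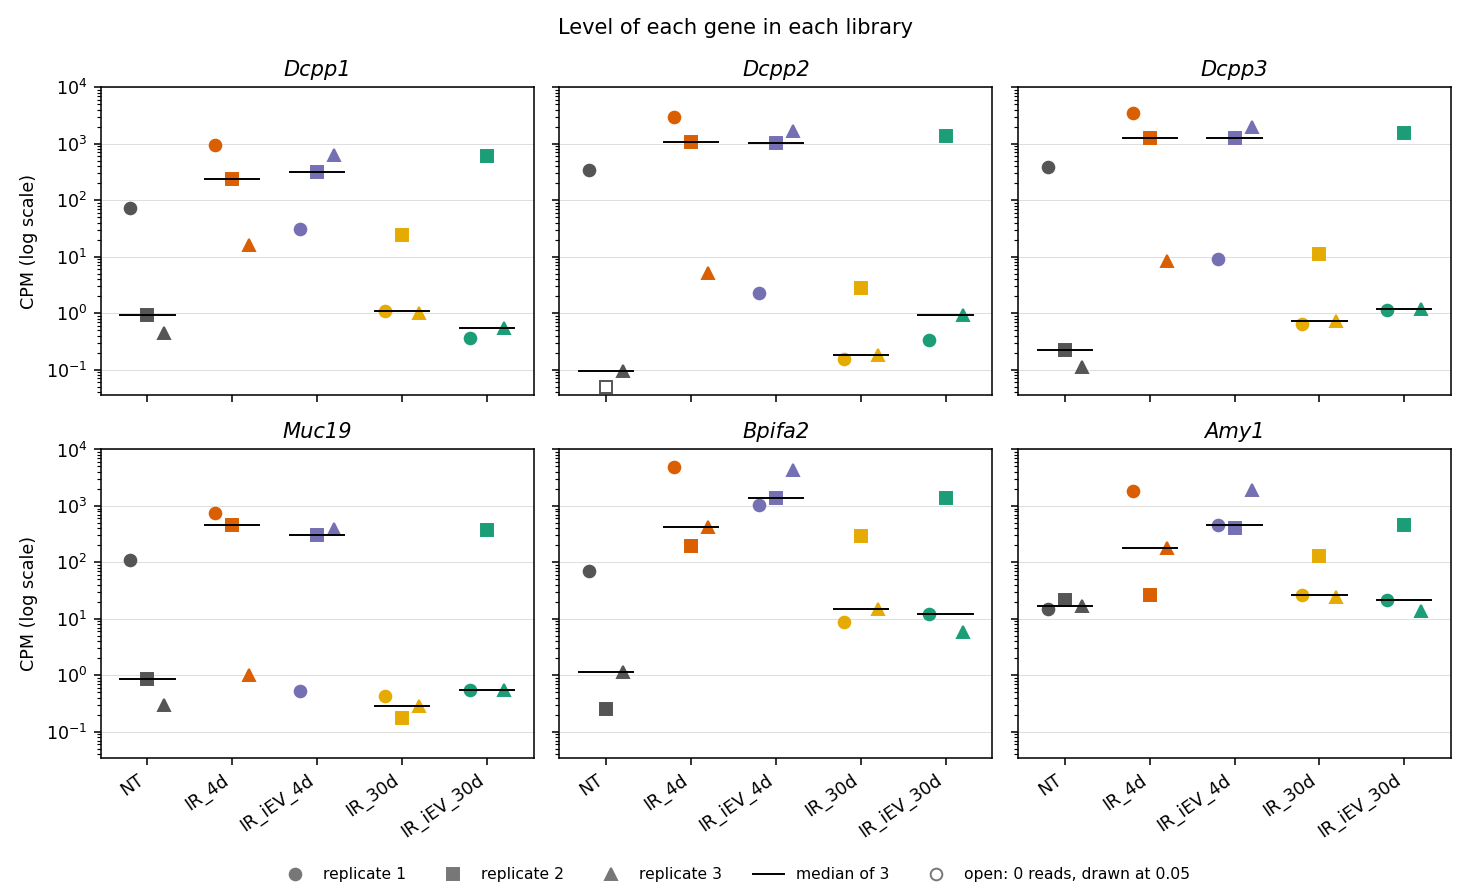
Level of each gene in every library, in CPM on a log axis. Each point is 1 library, its shape gives the replicate number, the bar is the median of the 3 libraries of a group, and the open point marks the library with 0 Dcpp2 reads, drawn at 0.05. Within NT, IR_4d, IR_iEV_4d and IR_iEV_30d, Dcpp2, Dcpp3 and Muc19 differ by orders of magnitude between replicates.

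The Dcpp genes are neighbouring, near-identical copies on mouse chromosome 17. Their promoters are shown because the 3 genes carry almost the same sequence before their start and yet contributed different shares of the reads in different libraries. The 250 bases before each start, from RefSeq on GRCm38.p6, are given with the letters TATAA in capitals, where the core promoter element called the TATA box is found. The plus-strand windows are chr17:23880626-23880875 for Dcpp1, chr17:23898472-23898721 for Dcpp2 and chr17:23917208-23917457 for Dcpp3.
Dcpp1: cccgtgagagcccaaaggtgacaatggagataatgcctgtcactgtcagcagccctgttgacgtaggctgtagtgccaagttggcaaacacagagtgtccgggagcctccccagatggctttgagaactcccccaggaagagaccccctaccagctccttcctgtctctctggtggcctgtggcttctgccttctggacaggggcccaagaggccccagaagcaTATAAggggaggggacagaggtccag
Dcpp2: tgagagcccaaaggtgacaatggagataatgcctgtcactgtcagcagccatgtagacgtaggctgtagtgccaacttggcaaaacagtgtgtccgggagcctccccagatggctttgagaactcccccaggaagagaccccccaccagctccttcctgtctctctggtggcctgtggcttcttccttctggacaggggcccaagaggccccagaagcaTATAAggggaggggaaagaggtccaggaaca
Dcpp3: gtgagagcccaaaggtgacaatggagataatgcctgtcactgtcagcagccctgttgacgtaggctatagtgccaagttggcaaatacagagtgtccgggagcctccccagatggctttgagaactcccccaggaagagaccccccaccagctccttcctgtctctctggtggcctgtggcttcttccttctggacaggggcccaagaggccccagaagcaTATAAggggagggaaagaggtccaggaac
Aligned to each other, the Dcpp1 and Dcpp2 windows were identical at 96.7% of positions, Dcpp1 and Dcpp3 at 97.6% and Dcpp2 and Dcpp3 at 97.2%. In each of the 3, TATAA lay on the gene's own strand 26 to 31 bases before the start. Of 32851 mouse promoter windows of this length, 22.8% held TATAA on either strand, and 3.79% held it on their own strand with its first base 15 to 40 bases before the start. The transcripts were less alike than the promoters. The longest annotated coding transcripts of Dcpp1 and Dcpp2 were identical at 91.9% of aligned positions, those of Dcpp1 and Dcpp3 at 91.4%, and those of Dcpp2 and Dcpp3 at 96.5%. Of all 50-base stretches, 46.5% in Dcpp1, 43.0% in Dcpp2 and 46.1% in Dcpp3 also occurred in another Dcpp gene. How reads that fit several genes were counted is not given in the sources used here, so the division of reads among the 3 genes is uncertain.

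Dcpp3 was the most counted Dcpp gene in every library with more than 1000 Muc19 reads. It stood at 384, 0.220 and 0.111 CPM in NT replicates 1, 2 and 3. On day 4 it stood at 3478, 1257 and 8.25 CPM in IR_4d and at 9.04, 1255 and 1950 CPM in IR_iEV_4d. On day 30 it stood at 0.634, 10.9 and 0.727 CPM in IR_30d and at 1.14, 1568 and 1.18 CPM in IR_iEV_30d. So 1 NT library, 2 of 3 libraries in each day 4 group and 1 IR_iEV_30d library were high, and no IR_30d library was.

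Dcpp2 had the same high libraries. Its levels were 343, 0 and 0.0924 CPM in NT, 3022, 1082 and 5.03 CPM in IR_4d, and 2.29, 1033 and 1657 CPM in IR_iEV_4d. On day 30 they were 0.151, 2.84 and 0.182 CPM in IR_30d and 0.341, 1345 and 0.942 CPM in IR_iEV_30d. NT replicate 2 held 0 Dcpp2 reads, which allows up to 3 reads, or 0.101 CPM before scaling, for counting error only.

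Dcpp1 was the least counted of the 3 in the high libraries and the most counted in 7 of the other 9. It stood at 71.9, 0.943 and 0.444 CPM in NT, at 943, 233 and 15.8 CPM in IR_4d and at 30.7, 311 and 641 CPM in IR_iEV_4d. On day 30 it stood at 1.09, 24.4 and 1.01 CPM in IR_30d and at 0.369, 599 and 0.555 CPM in IR_iEV_30d. Its middle values, 15.8, 30.7 and 24.4 CPM, fell in the libraries that were high for Amy1 and low for Muc19.

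The make-up of the Dcpp reads differed between libraries by more than counting error. Dcpp1 made up 9.01% of Dcpp reads in NT replicate 1, with an exact Clopper-Pearson 95% interval of 8.67 to 9.35%. In IR_4d it made up 12.7% in replicate 1 and 9.07% in replicate 2, against 54.3% (interval 50.8 to 57.7%) in replicate 3, where the Dcpp reads numbered 831. In IR_iEV_4d it made up 73.0% (interval 70.5 to 75.4%) of 1282 Dcpp reads in replicate 1, against 12.0% and 15.1% in replicates 2 and 3. In IR_30d replicate 2 the share was 64.0% (interval 61.3 to 66.5%) of 1332 reads, and in IR_iEV_30d replicate 2 it was 17.0%. Reads from PCR are not independent molecules, so these intervals cover counting error only. The 6 libraries with more than 1000 Muc19 reads thus all had Dcpp1 shares of at most 17.0%, and the 3 with high Amy1 but without Muc19 all had shares of at least 54.3%. Expressed per Dcpp1 read, there were 2.25 to 4.76 Dcpp2 reads in the former and 0.0748 to 0.319 in the latter. The remaining 6 libraries, low for both Muc19 and Amy1, held only 35 to 111 Dcpp reads each. Among them the Dcpp1 share was 52.7 to 81.1% in NT replicates 2 and 3 and IR_30d replicates 1 and 3. It was at most 20.7% in IR_iEV_30d replicates 1 and 3. A high Dcpp1 share was thus not confined to libraries high for Amy1.

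**Figure D2:**
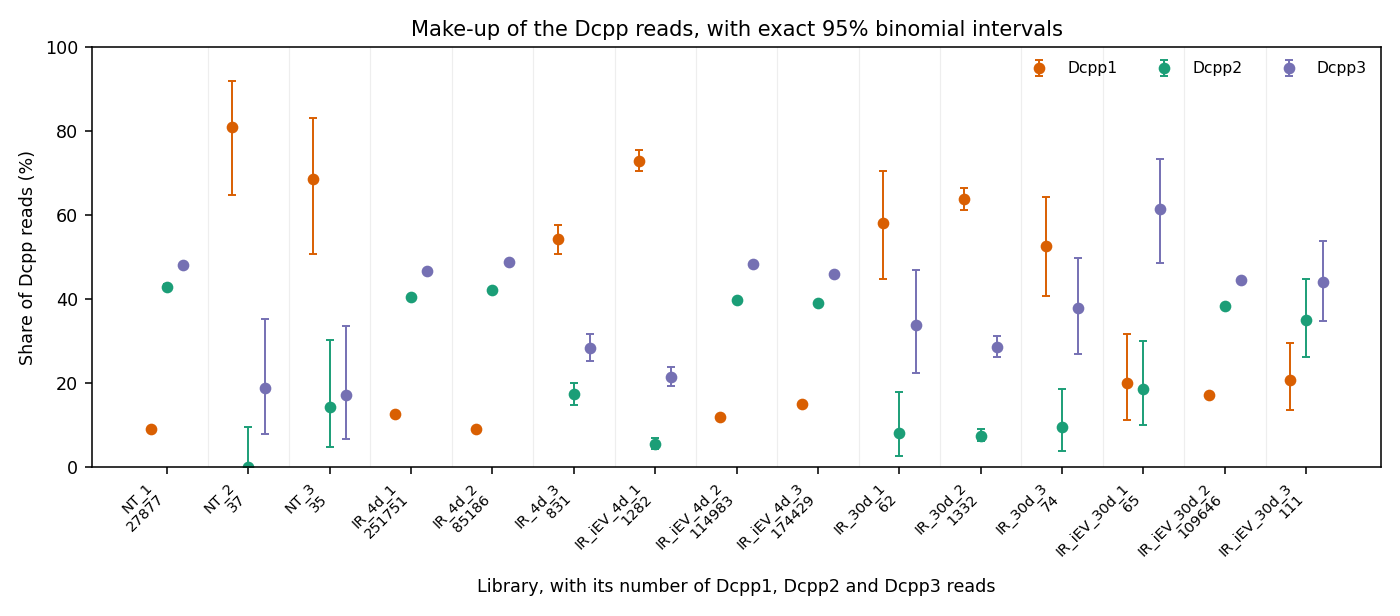
Share of Dcpp1, Dcpp2 and Dcpp3 in the summed reads of the 3 genes, in percent, for each library, with exact 95% binomial intervals and the number of reads under each library name. Dcpp1 makes up 9.01 to 17.0% in the 6 libraries rich in Dcpp reads and 54.3 to 73.0% in IR_4d replicate 3, IR_iEV_4d replicate 1 and IR_30d replicate 2. On 35 to 111 reads, it makes up 52.7 to 81.1% in NT replicates 2 and 3 and IR_30d replicates 1 and 3. In IR_iEV_30d replicates 1 and 3 it makes up at most 20.7%.

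Muc19, the sublingual gel-forming mucin, was either high or close to 0. It stood at 109, 0.849 and 0.296 CPM in NT, at 764, 453 and 1.01 CPM in IR_4d and at 0.524, 307 and 384 CPM in IR_iEV_4d. On day 30 it stood at 0.423, 0.172 and 0.286 CPM in IR_30d and at 0.540, 371 and 0.555 CPM in IR_iEV_30d. The 6 high libraries held 3790 to 25851 Muc19 reads and the other 9 held 6 to 29, with nothing between. No RefSeq promoter was matched for Muc19.

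In the 6 high libraries, there were 0.197 to 0.360 Muc19 reads per Dcpp3 read. Smgc, the gene of submandibular gland protein C, shares its locus with Muc19, so that their reads may not be fully told apart. It gave 0.0364 to 0.0656 reads per Muc19 read in the same libraries. NT replicate 1 was the lowest of the 6 for each of Dcpp1, Dcpp2, Dcpp3 and Muc19, and IR_4d replicate 1 the highest.

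Bpifa2 and Amy1 were described above by the parotid gland, although Bpifa2 reached 193 CPM in IR_4d replicate 2, where Amy1 stood at 26.4 CPM. Their starts are shown because they lie on other chromosomes than the Dcpp genes and because Amy1 has 2 annotated starts, which gene counts do not separate. The 250 bases before each start are again from RefSeq on GRCm38.p6 with TATAA in capitals on either strand. They are chr2:154008026-154008275 on the plus strand for Bpifa2, and on the minus strand chr3:113577751-113578000 for the upstream and chr3:113574763-113575012 for the downstream start of Amy1.
Bpifa2: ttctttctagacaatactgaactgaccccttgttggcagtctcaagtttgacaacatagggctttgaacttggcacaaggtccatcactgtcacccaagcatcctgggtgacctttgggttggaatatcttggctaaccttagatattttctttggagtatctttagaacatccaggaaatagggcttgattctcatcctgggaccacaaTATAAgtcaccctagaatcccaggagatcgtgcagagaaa
Amy1 upstream: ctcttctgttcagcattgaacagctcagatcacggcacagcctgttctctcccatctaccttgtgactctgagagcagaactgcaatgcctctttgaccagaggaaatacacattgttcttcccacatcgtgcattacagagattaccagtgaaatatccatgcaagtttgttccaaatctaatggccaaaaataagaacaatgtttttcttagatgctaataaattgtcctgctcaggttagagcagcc
Amy1 downstream: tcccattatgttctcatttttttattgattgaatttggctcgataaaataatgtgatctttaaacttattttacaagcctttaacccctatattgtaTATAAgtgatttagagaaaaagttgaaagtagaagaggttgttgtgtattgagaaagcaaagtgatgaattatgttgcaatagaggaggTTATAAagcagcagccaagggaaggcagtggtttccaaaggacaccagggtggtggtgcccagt
The Bpifa2 window held TATAA from 40 bases before the start. The upstream Amy1 window held no TATAA, and the downstream one held it from 153 and from 63 bases before the start, the latter overlapping a match on the other strand. Neither of 2 further motifs, CATATG and TNAAGTG, was found on either strand in any of the 6 windows, and 3.46% and 10.1% of all promoter windows held them. These matches describe the letters only. Of the 50-base stretches of the longest Amy1 transcript, 1.76% also occurred in the pancreatic amylase transcripts.

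Bpifa2 reached the highest level of the 6 genes, 4911 CPM, and its lowest was 0.252 CPM. It stood at 70.4, 0.252 and 1.15 CPM in NT, at 4911, 193 and 429 CPM in IR_4d and at 1057, 1368 and 4348 CPM in IR_iEV_4d. On day 30 it stood at 8.64, 296 and 14.7 CPM in IR_30d and at 12.3, 1358 and 5.94 CPM in IR_iEV_30d. All 6 day 4 libraries lay above all 3 NT libraries. By reads it was number 18 among all genes in the first IR_4d replicate and number 14960 in the second NT replicate.

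Amy1 was the only member with a steady level in the libraries where it was low. It stood at 14.7, 21.3 and 17.2 CPM in NT, at 1845, 26.4 and 183 CPM in IR_4d and at 462, 409 and 1897 CPM in IR_iEV_4d. On day 30 it stood at 26.2, 128 and 24.2 CPM in IR_30d and at 21.4, 457 and 13.7 CPM in IR_iEV_30d. In 8 libraries it lay between 13.7 and 26.4 CPM, and in the other 7 between 128 and 1897 CPM.

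The high libraries for Amy1 were not the high libraries for Muc19. The 2 genes were high together in 4 libraries: IR_4d replicate 1, IR_iEV_4d replicates 2 and 3, and IR_iEV_30d replicate 2. Muc19 alone was high in NT replicate 1 and IR_4d replicate 2, where Amy1 stood at 14.7 and 26.4 CPM. Amy1 alone was high in IR_4d replicate 3, IR_iEV_4d replicate 1 and IR_30d replicate 2, where Muc19 stood at 1.01, 0.524 and 0.172 CPM. The remaining 6 libraries, 2 each of NT, IR_30d and IR_iEV_30d, were low for both. No library of either day 4 group was low for both, and no NT library was high for Amy1.

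**Figure D3:**
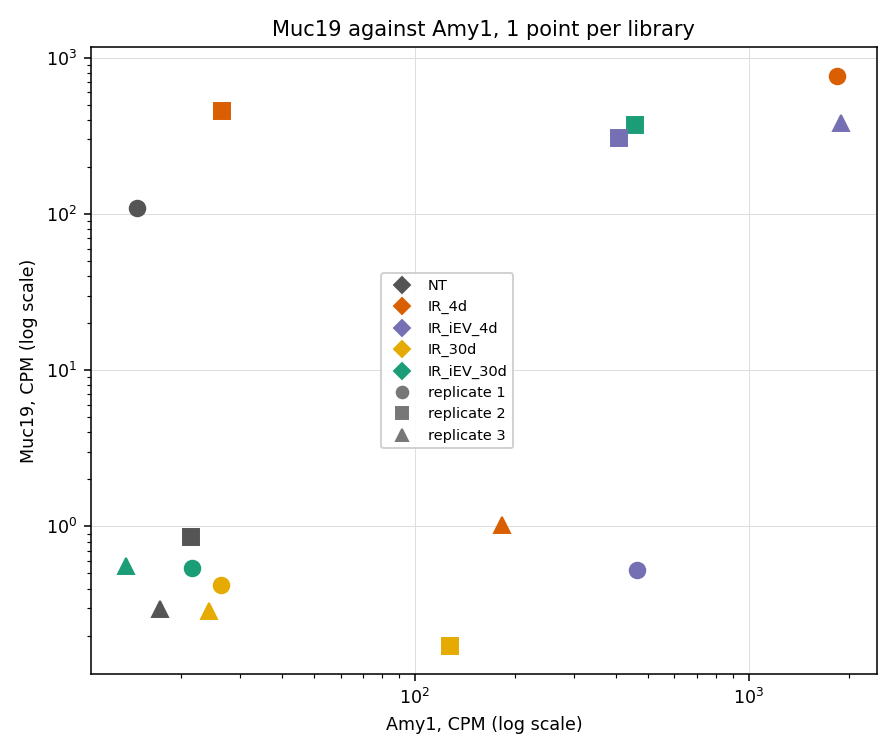
Muc19 against Amy1 in CPM, both axes on a log scale, with 1 point per library, coloured by group and shaped by replicate number. The points fall in all 4 corners: 4 libraries are high for both genes, 2 for Muc19 alone, 3 for Amy1 alone and 6 for neither.

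Bpifa2 was high in both kinds of library, in different proportions to Amy1. In the 7 libraries with more than 100 CPM of Amy1 there were 2.29 to 3.35 Bpifa2 reads per Amy1 read. The 3 of these without Muc19 had 2.34, 2.29 and 2.32, and their exact 95% intervals overlapped. NT replicate 1 and IR_4d replicate 2, high for Muc19 alone, had 4.79 (interval 4.35 to 5.28) and 7.32 (interval 6.82 to 7.86). In 5 of the 6 libraries low for both genes the ratio lay between 0.0665 and 0.607, and the sixth, NT replicate 2, held 8 Bpifa2 reads beside 679 of Amy1. Among these 6, Bpifa2 stood at 5.94 to 14.7 CPM in the 4 day 30 libraries and at 0.252 and 1.15 CPM in the 2 NT libraries.

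Per length of gene, Dcpp3 and Dcpp2 were the highest of the set in the 6 libraries with more than 1000 Muc19 reads. In IR_4d replicate 1, CPM per kilobase of annotated exon (GENCODE vM21) was 4976 for Dcpp3, 4128 for Dcpp2, 2444 for Bpifa2, 1528 for Dcpp1, 535 for Amy1 and 83.9 for Muc19. In IR_iEV_4d replicate 1, which was high for Amy1 and low for Muc19, the order was Bpifa2 at 526, Amy1 at 134, Dcpp1 at 49.7, Dcpp3 at 12.9, Dcpp2 at 3.13 and Muc19 at 0.0575 CPM per kilobase. The Muc19 value rests on an annotated exon length of 9105 bases, and whether these exons overlap those of Smgc was not tested. Summed over the 6 genes, their reads were 1.57% of IR_4d replicate 1 and 1.09% of IR_iEV_4d replicate 3, against 0.00200% of NT replicate 3.

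The genes most alike in pattern to Dcpp1, Muc19, Bpifa2 and Amy1 were picked by that likeness, so they follow the same libraries by choice. Likeness was the Pearson correlation of log2(CPM + 0.5) over the 15 libraries, among 10720 genes that reached 5 CPM in at least 1 library. It is given as a description, since the libraries form separate high and low clusters and share their scaling. Closest to Muc19 were A2ml1, a protease inhibitor of the macroglobulin family (r = 0.987), B3gnt6, an enzyme that builds mucin-type O-glycans (0.983), and Nkx2-3, a homeobox factor needed for sublingual gland development (0.983), followed by Lman1l, Smgc and Sox2 (0.974, 0.971 and 0.957). A2ml1 stood between 795 and 7883 CPM in the 6 libraries high for Muc19 and between 0.0185 and 8.11 CPM in the other 9. Nkx2-3 had 1.00 to 7.07 CPM in the former and no read in any of the latter. The 6 closest to Dcpp1 were Cgref1, A2ml1, Smgc, Wfdc18, Lman1l and B3gnt6, with r from 0.937 to 0.917.

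Closest to Amy1 were Cst10, a cystatin (r = 0.996), and Prb1 and Prpmp5, which encode proline-rich salivary proteins (0.992 and 0.987), followed by BC037156, Gm5154 and Chia1, an acidic chitinase (0.987, 0.985 and 0.980). Cst10 had 0 reads in the 3 NT libraries and 4.47 to 66.5 CPM in the 7 libraries high for Amy1. Chia1 stood at 27.8 to 387 CPM in those 7 and at no more than 2.17 CPM in the other 8. Bpifa2 was most like Smr3a (r = 0.935), then Chia1, BC037156, Wfdc18, Cst10 and Gm5154 (0.925 to 0.904). Its correlation with the member Dcpp1 was 0.901 and that with Amy1 was 0.890. Smr3a, which had been listed as a submandibular acinar gene, stood at 0 to 0.0740 CPM in NT and at 1898 CPM in IR_4d replicate 1, and it gave 0.396 to 1.03 reads per Amy1 read in the 7 libraries high for Amy1. Prol1, by contrast, kept within its range of 47335 to 75072 CPM in the same libraries.

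**Figure D4:**
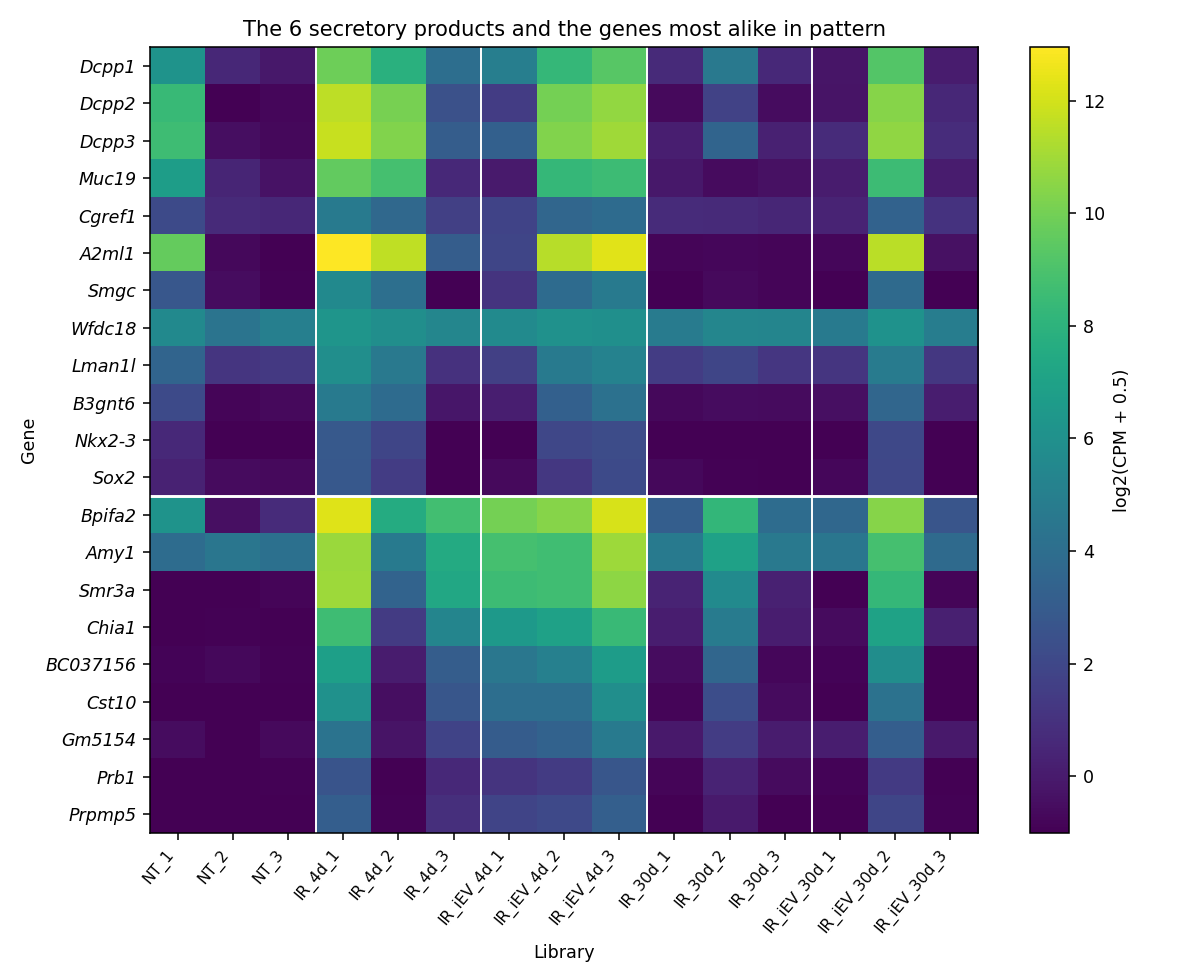
Level of the 6 secretory products and of the genes most like Dcpp1, Muc19, Bpifa2 and Amy1, as log2(CPM + 0.5), with 1 column per library and white lines between groups. Genes above the horizontal line are highest in the 6 libraries with more than 1000 Muc19 reads and those under it in the 7 with more than 100 CPM of Amy1, while Wfdc18 is high throughout. The genes beside the 6 products were picked by their likeness to members, which set this pattern.

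Other genes of the 2 glands were read from lists. Of 11 sublingual and mucous acinar genes beside the members, 10 were in the table and 9 were tested. Their summed level ran from 34.7 to 65.4 CPM in NT, 42.6 to 167 in IR_4d, 50.2 to 121 in IR_iEV_4d, 31.7 to 34.4 in IR_30d and 35.3 to 85.3 in IR_iEV_30d. Spdef, a factor of mucous cell maturation, led them, with 23.5 to 49.0 CPM, followed by Smgc and B3gnt6. Not all of the sublingual list was separated by library: Muc5b, another gel-forming mucin, stood at 0 to 0.145 CPM throughout. Of 9 parotid and serous genes, 7 were in the table and 5 were tested. Their sum of 26391 to 44332 CPM came almost wholly from Car6, Pip and Lpo, a carbonic anhydrase, a prolactin-induced protein and a peroxidase of saliva, which were high in every library and so did not separate libraries as Amy1 did. Prpmp5, of the same list and named above for its likeness to Amy1, did separate them at a low level. It stood at 0.516 to 8.67 CPM in the 7 libraries high for Amy1 and at no more than 0.0302 CPM in the other 8. Of 14 other BPI fold genes, 3 were in the table. Lbp, the lipopolysaccharide-binding protein, stood at 1.74 to 4.22 CPM, Bpifb4 at no more than 0.201 CPM, and Bpifb5 held 0 reads in all 15 libraries. Of 6 other amylase genes, Amy2b was in the table, at no more than 0.249 CPM. Of 6 other secreted mucins, 4 were in the table, and beside Prol1 the highest was Muc2 at no more than 1.20 CPM.

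The irradiation comparison at day 4 asked whether these products differed 4 days after 15 Gy. Mean levels in IR_4d against NT were 685 ± 1008 against 17.8 ± 3.36 CPM for Amy1 and 1844 ± 2658 against 23.9 ± 40.3 CPM for Bpifa2 (SD, n = 3 each), and the 3 libraries of IR_4d lay above the 3 of NT for these 2 genes. Over all genes tested, 18.4% had groups that did not overlap in this comparison, in either direction. The log2 changes were 5.27 ± 1.86 (SE) for Amy1 and 6.27 ± 2.88 for Bpifa2, with adjusted p = 0.281 and 0.444 by edgeR's quasi-likelihood test with Benjamini-Hochberg adjustment. Dcpp1, Dcpp2, Dcpp3 and Muc19 had log2 changes of 4.03 ± 2.79, 3.58 ± 3.36, 3.63 ± 3.27 and 3.48 ± 2.82 with overlapping groups. So 0 of 6 members passed by edgeR, where 1.40% of all genes passed. An unadjusted p under 0.05 was found for 1 of 6 (Amy1) and for 1854 of all 16042 genes tested. DESeq2 called 2, Bpifa2 and Amy1, with adjusted p = 0.0179 and 0.00635, among 435 genes that it called in all. limma-voom called 0 members. Over all alternatives the adjusted p ran from 0.0179 to 0.746 for Bpifa2 and from 0.00635 to 0.678 for Amy1. Without NT replicate 1 the changes were 9.24 for Dcpp1, 14.46 for Dcpp2, 13.29 for Dcpp3, 9.59 for Muc19, 11.25 for Bpifa2 and 5.15 for Amy1. Without IR_4d replicate 1 they were 2.35, 2.25, 2.30, 2.64, 3.70 and 2.56 for the same genes in this order.

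At day 30 the irradiated glands stood at the other end for Muc19 and the Dcpp genes. Log2 changes of IR_30d against NT were -6.95 ± 3.93 for Muc19, -6.76 ± 4.06 for Dcpp2, -4.97 ± 3.54 for Dcpp3 and -1.46 ± 2.60 for Dcpp1, and 2.16 ± 2.40 for Bpifa2 and 1.74 ± 1.61 for Amy1 (SE, n = 3 each). The values of Muc19 and the Dcpp genes turned on 1 library: without NT replicate 1 the changes were 4.12 for Dcpp2, 4.70 for Dcpp3, 3.75 for Dcpp1 and -0.83 for Muc19. Without IR_30d replicate 2 the changes of Bpifa2 and Amy1 were -1.03 and 0.51. That of Bpifa2 turned on NT replicate 1 too, without which it was 7.14. Of the 6 members 0 passed by edgeR, against 4.48% of all genes, with adjusted p from 0.452 to 0.866 and 0 unadjusted p under 0.05. DESeq2 called 1, Muc19, with adjusted p = 0.0321, among 1082 genes that it called in all. Over the alternatives the adjusted p of Muc19 ran from 0.0321 to 0.971, and limma-voom called 0 members. Amy1 was the only member whose groups did not overlap, 24.2 to 128 against 14.7 to 21.3 CPM, against 23.2% of all genes.

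**Figure D5:**
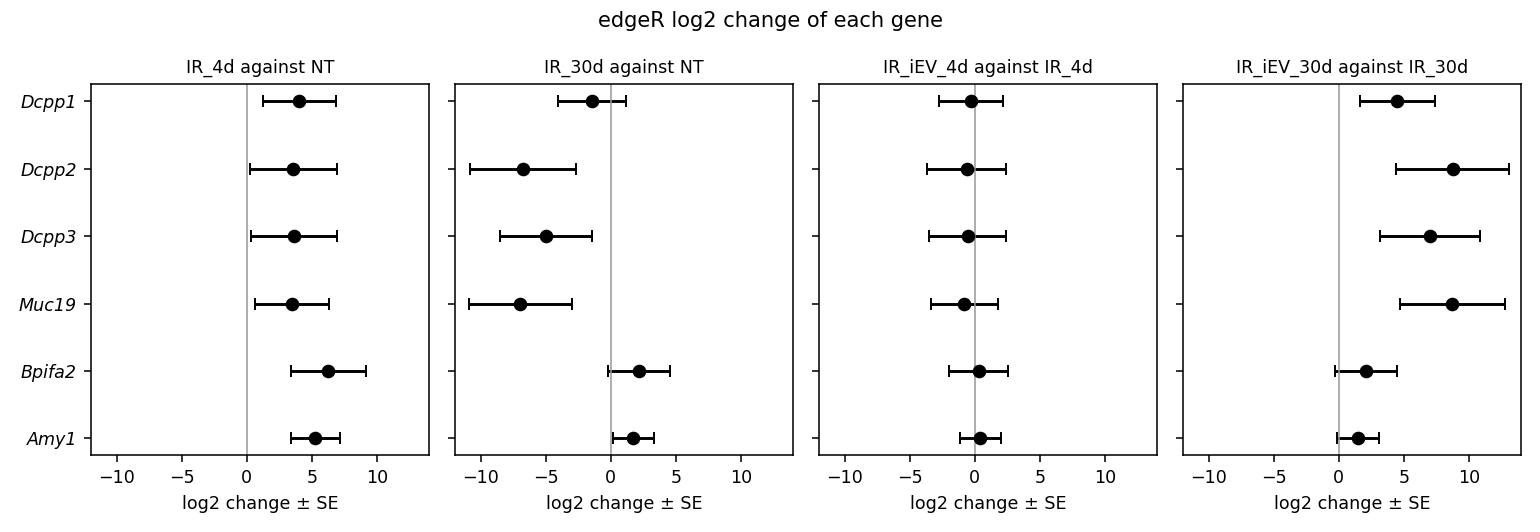
Log2 change ± SE of each gene by edgeR in the 4 comparisons of irradiation with NT and of iEV-injected with irradiated glands. The SE runs from 1.55 to 4.37, and 0 of 6 genes pass the threshold in any of the 4.

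The iEV comparison at day 4, IR_iEV_4d against IR_4d, showed the smallest differences of the 4 main comparisons. Mean levels were 923 ± 844 against 685 ± 1008 CPM for Amy1, 2258 ± 1817 against 1844 ± 2658 CPM for Bpifa2 and 231 ± 203 against 406 ± 384 CPM for Muc19 (SD, n = 3 each). The log2 changes were 0.43 ± 1.55 for Amy1, 0.29 ± 2.29 for Bpifa2, -0.82 ± 2.57 for Muc19, -0.28 ± 2.46 for Dcpp1, -0.61 ± 3.04 for Dcpp2 and -0.56 ± 2.96 for Dcpp3. Without IR_4d replicate 1 those of Dcpp1, Dcpp2, Dcpp3 and Muc19 were 1.40, 0.73, 0.77 and 0.03, and without IR_iEV_4d replicate 1 Dcpp1 and Dcpp3 stood at 0.26 and 0.02. Amy1 and Bpifa2 turned negative when IR_4d replicate 2, IR_4d replicate 3 or IR_iEV_4d replicate 3 was left out, at -0.14, -0.02 and -0.66 for Amy1 and -0.24, -0.18 and -0.61 for Bpifa2. The groups overlapped for all 6 genes, where they did not overlap for 14.2% of all genes. In this comparison 0 of 6 members passed by edgeR, against 0.0312% of all genes, with 0 unadjusted p under 0.05, and DESeq2 and limma-voom called 0. SEs of this size leave room for large changes either way, so the p-values do not show that the levels were alike.

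At day 30, IR_iEV_30d against IR_30d, the differences were large and rested on IR_iEV_30d replicate 2. The log2 changes were 8.71 ± 4.04 for Muc19, 8.73 ± 4.37 for Dcpp2, 7.0 ± 3.87 for Dcpp3, 4.50 ± 2.88 for Dcpp1, 2.11 ± 2.39 for Bpifa2 and 1.46 ± 1.59 for Amy1 (SE, n = 3 each). Without IR_iEV_30d replicate 2 they were -0.67 for Dcpp2, -1.81 for Dcpp3, -4.22 for Dcpp1, -3.54 for Bpifa2, -1.75 for Amy1 and 0.91 for Muc19. Again 0 of 6 members passed by edgeR, against 0.798% of all genes, with adjusted p from 0.407 to 0.766 and 0 unadjusted p under 0.05. limma-voom called 0 members. DESeq2 called 394 genes in all, among them 2 members, Dcpp2 and Muc19, with adjusted p = 0.0470 and 0.00805. Their ranges over the alternatives were 0.047 to 0.965 and 0.00805 to 0.956. Muc19 was the only member whose groups did not overlap, although 2 of the 3 IR_iEV_30d libraries held only 19 and 23 Muc19 reads, and 19.6% of all genes did not overlap. The difference between the iEV change on day 30 and on day 4 was 9.53 ± 4.79 for Muc19, 9.34 ± 5.15 for Dcpp2, 7.56 ± 4.71 for Dcpp3, 4.78 ± 3.69 for Dcpp1, 1.82 ± 3.27 for Bpifa2 and 1.03 ± 2.20 for Amy1 on the log2 scale. Without IR_iEV_30d replicate 2 it turned negative for Dcpp1, Dcpp2, Dcpp3, Bpifa2 and Amy1, at -3.94, -0.06, -1.25, -3.83 and -2.18. Without IR_4d replicate 1 it was -0.75 for Bpifa2 and -1.67 for Amy1. It passed for 0 of 6 members by edgeR, against 0.125% of all genes, with adjusted p from 0.617 to 0.952 and 0 unadjusted p under 0.05, and DESeq2 and limma-voom called 0.

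The 2 iEV-injected groups were also set against the same NT libraries, so these comparisons share their controls with those of irradiation alone. In IR_iEV_4d against NT the log2 changes were 5.70 ± 1.90 for Amy1 and 6.56 ± 2.92 for Bpifa2, with adjusted p = 0.156 and 0.297 by edgeR. Dcpp1, Dcpp2, Dcpp3 and Muc19 had changes of 3.75 ± 2.75, 2.97 ± 3.27, 3.06 ± 3.19 and 2.66 ± 2.73 with overlapping groups. Amy1 and Bpifa2 were the 2 members whose groups did not overlap, against 19.0% of all genes. By edgeR 0 of 6 members passed, against 2.31% of all genes. The same 2 members had an unadjusted p under 0.05, as did 2666 of all 16042 genes tested. limma-voom called 0 members. DESeq2 called 828 genes in all, among them Bpifa2 and Amy1, with adjusted p = 0.00689 and 0.00146. Over the alternatives the adjusted p reached 0.535 and 0.383. The 9 adipose genes had a median log2 change of 3.89 in this comparison, with 0 passing and 8 at an unadjusted p under 0.05, and their part in the values of Amy1 and Bpifa2 was not tested. In IR_iEV_30d against NT the log2 changes were 4.26 ± 2.62 for Bpifa2, 3.21 ± 1.70 for Amy1, 3.04 ± 2.67 for Dcpp1, 2.03 ± 3.06 for Dcpp3, 1.97 ± 3.14 for Dcpp2 and 1.76 ± 2.65 for Muc19. These rested on IR_iEV_30d replicate 2, without which they were -1.38, -0.00, -5.68, -6.77, -7.43 and -6.04. There 0 of 6 passed by edgeR, against 1.10% of all genes, with 0 unadjusted p under 0.05 and 0 calls by DESeq2 and limma-voom. No member was free of overlap there, against 17.0% of all genes.

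Between the days, Muc19 and Dcpp2 were lower in all 3 IR_30d libraries than in any IR_4d library. The log2 changes of IR_30d against IR_4d were -10.43 ± 4.21 for Muc19 and -10.34 ± 4.62 for Dcpp2, with adjusted p = 0.198 and 0.249 by edgeR. Dcpp3, Dcpp1, Bpifa2 and Amy1 had changes of -8.59 ± 4.14, -5.49 ± 3.01, -4.11 ± 2.60 and -3.53 ± 1.71 with overlapping groups. By edgeR 0 of 6 members passed, against 6.81% of all genes, while 31.5% of all genes had groups that did not overlap. An unadjusted p under 0.05 was found for 2 members and for 3181 of all 16042 genes tested. DESeq2 called 3, Dcpp2, Dcpp3 and Muc19, among 1468 genes that it called in all, and limma-voom called 0 members. The adjusted p of Muc19 ran from 0.000142 to 0.999 over the alternatives and that of Dcpp2 from 0.00322 to 0.959. For Muc19 the gap between the groups was narrow, since IR_4d replicate 3 held 1.01 CPM and IR_30d replicate 1 held 0.423 CPM. With iEVs, IR_iEV_30d against IR_iEV_4d, the changes were -2.49 ± 1.64 for Amy1, -2.30 ± 2.40 for Bpifa2, -1.03 ± 2.98 for Dcpp3, -1.0 ± 3.06 for Dcpp2, -0.90 ± 2.58 for Muc19 and -0.71 ± 2.47 for Dcpp1. Without IR_iEV_4d replicate 3, that of Dcpp1 was 0.22. In this comparison of days 0 of 6 members passed by edgeR, against 8.27% of all genes, with 0 calls by DESeq2 and limma-voom. An unadjusted p under 0.05 was found for 0 members and for 3883 of all 16042 genes tested. No member was free of overlap in that comparison, against 26.0% of all genes. The 9 adipose genes had a median log2 change of -4.57 there, with 1 passing, which was lower, and 9 at an unadjusted p under 0.05, and their part in the members' values was not tested.

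The listed genes of the 2 glands did not pass either in the comparisons with NT or between iEV-injected and irradiated glands. Of the 9 sublingual genes tested, 0 passed by edgeR in IR_4d against NT. An unadjusted p under 0.05 was found for 2 of the 9 and for 1854 of all 16042 genes. The median log2 change of the 9 was 1.84 beside 0.00 for all genes. The median was -0.95 in IR_30d against NT, -0.43 in IR_iEV_4d against IR_4d and 1.16 in IR_iEV_30d against IR_30d, with 0 passing and 1, 0 and 1 at an unadjusted p under 0.05. In the same order, 2618, 1093 and 2066 of all 16042 genes had an unadjusted p under 0.05. In IR_30d against IR_4d 2 of the 9 passed, both lower, against 6.81% of all genes. There 6 of the 9 had an unadjusted p under 0.05, as did 3181 of all 16042 genes. By edgeR with Benjamini-Hochberg adjustment, Spdef fell by 0.68 ± 0.18 on the log2 scale (adjusted p = 0.0328). Agr2, a protein of mucin folding, fell by 1.24 ± 0.25 on the log2 scale (adjusted p = 0.00481) by the same test. Spdef stood at 47.1 and 40.1 CPM in IR_4d replicates 1 and 2, which were high for Muc19. It stood at 31.0 CPM in IR_4d replicate 3 and at 23.5 to 25.8 CPM in IR_30d, which were low for Muc19. The part of this division in the fall of Spdef was not tested. Agr2 was named after its values were seen. It did not follow Muc19 across libraries, standing at 4.58 CPM in the third IR_4d replicate and at 3.95 CPM in the first of NT. Of the 5 parotid genes tested, 0 passed in any comparison by edgeR, with 3 at an unadjusted p under 0.05 in IR_4d against NT and a median log2 change there of 0.17. In that comparison Prpmp5 had a log2 change of 9.90 ± 3.82 (adjusted p = 0.358 by edgeR), while Car6, Pip and Lpo had -0.35, 0.17 and -0.12. The adipose genes, at 223 and 199 CPM summed in IR_4d replicate 3 and IR_iEV_4d replicate 1, had a median log2 change of 2.60 in IR_4d against NT with 0 of 9 passing and 0 at an unadjusted p under 0.05, and their part in the values of Amy1 and Bpifa2 was not tested.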

How the data were processed

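RNA was extracted with TRIzol and libraries were made with a directional NEXTFLEX kit, per the labels' protocols. The authors deposited read counts in 1 table, whole numbers by gene symbol, for 15 libraries. TopHat, HTSeq, DESeq2 and the build GRCm39 are named, per the submitters' processing notes; versions, annotation and strand setting are not given in the sources used here. Genes were tested with edgeR 4.0.16 (TMM scaling, filterByExpr with minimum count 10 and total 15, robust quasi-likelihood F test, 1 model of 15 libraries, 10 residual degrees of freedom). This left 16042 genes, with Benjamini-Hochberg adjustment over them in each of 9 tests and a threshold of 0.05. From 1093 to 3883 of these genes had an unadjusted p under 0.05, depending on the test. The SE is the absolute log2 change divided by the square root of F. CPM use the effective library size. Alternatives were DESeq2 1.42.0, limma-voom (limma 3.58.1) and other scalings, filters, samples and covariates. Members and gene lists were chosen with earlier results of these data known. All 6 members are given in every library and comparison. By rule, at most the 3 highest genes of each list are named, with the 6 genes most alike to each of 4 members. No gene coordinates are given on GRCm39; sequences and lengths are from annotation of GRCm38. Scripts were tested on simulated data. No 2 libraries of the same group agreed within sampling noise.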

Additional observations from a re-analysis of the deposited data

How the results depend on the processing

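By edgeR, 0 of 6 members passed in each of the 9 tests under DESeq2 size factors, upper quartile scaling, a filter at a mean of 5 CPM or no filter on counts, a fit of only the groups compared (8 tests), the replicate number as a block, a covariate from sublingual genes and each library left out in turn (0 to 0 calls). limma-voom also called 0. DESeq2 called 2 members in IR_4d against NT, 1 in IR_30d against NT, 2 in IR_iEV_30d against IR_30d, 2 in IR_iEV_4d against NT and 3 in IR_30d against IR_4d, and the cause was not tested. In the same order DESeq2 called 435, 1082, 394, 828 and 1468 genes in all, beside 224, 718, 128, 371 and 1092 by edgeR. A separate fit of IR_30d against NT gave no value for Dcpp2, which failed the count filter there.

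Directions were less stable than the absence of calls. The covariate from sublingual genes itself divided the libraries as Muc19 did. It stood at 1.32 to 2.54 in the 6 libraries with more than 1000 Muc19 reads and at 0.67 to 0.90 in the other 9. It also held Nkx2-3, named above for its likeness to Muc19. For Muc19 and the Dcpp genes, that fit thus adjusts for a stand-in of their own level and cannot decide a direction. With a covariate of 6 sublingual genes that are not members, log2 changes reversed in IR_4d against NT to -2.22 (Dcpp2), -1.70 (Dcpp3) and -2.80 (Muc19), in IR_30d against NT to 1.46 (Dcpp1), in IR_iEV_4d against IR_4d to 1.08, 0.28, 0.65 and 0.42 (Dcpp1, Dcpp2, Dcpp3, Muc19) and in IR_iEV_30d against IR_30d to -1.23, -0.41, -1.51, -1.35 and -0.67 (Dcpp1, Dcpp2, Dcpp3, Bpifa2, Amy1). They also reversed in IR_iEV_4d against NT to -1.94, -1.05 and -2.38 and in IR_iEV_30d against NT to -2.11, -1.70 and -2.04 (Dcpp2, Dcpp3, Muc19). In IR_30d against IR_4d they went to 1.22, 0.53, 1.51 and 0.04 (Dcpp1, Dcpp2, Dcpp3, Muc19), and in IR_iEV_30d against IR_iEV_4d to 0.34 (Muc19). The difference between the iEV changes of the 2 days went to -2.31, -0.70, -2.17, -2.72 and -1.97 (Dcpp1, Dcpp2, Dcpp3, Bpifa2, Amy1). limma-voom reversed Dcpp1 (0.26) and Dcpp3 (0.16) in IR_30d against NT, Dcpp1 (0.28) in IR_iEV_4d against IR_4d, and Bpifa2 (-0.92) and Amy1 (-1.58) in the difference between the days. The causes were not tested.

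A fit without the 6 libraries above 1000 Muc19 reads was chosen after the data were seen and by the level of Muc19 itself. It leaves 1 library in IR_4d and 1 in IR_iEV_4d, so it is a description and supports nothing. Its signs differed in IR_30d against NT, at 3.72, 4.12 and 4.67 (Dcpp1, Dcpp2, Dcpp3), in IR_iEV_4d against IR_4d, at 0.94 and 0.11 (Dcpp1, Dcpp3), and in IR_iEV_30d against IR_30d, at -4.20, -0.67, -1.79, -3.52 and -1.74 (Dcpp1, Dcpp2, Dcpp3, Bpifa2, Amy1). They differed too in IR_iEV_4d against NT at -0.12 (Muc19), in IR_iEV_30d against NT at -0.48, -0.03 and -0.14 (Dcpp1, Muc19, Amy1), in IR_iEV_30d against IR_iEV_4d at 0.09 (Muc19) and in the difference between the days at -5.15, -1.90, -4.81 and -3.06 (Dcpp1, Dcpp3, Bpifa2, Amy1).

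Leaving out 1 library at a time gave, in IR_30d against NT, ranges of -4.53 to 3.75 (Dcpp1), -9.39 to 4.12 (Dcpp2), -7.55 to 4.70 (Dcpp3) and -1.03 to 7.14 (Bpifa2). In IR_iEV_4d against IR_4d they were -1.21 to 1.40 (Dcpp1), -1.40 to 0.73 (Dcpp2), -1.32 to 0.77 (Dcpp3), -1.40 to 0.03 (Muc19), -0.61 to 2.86 (Bpifa2) and -0.66 to 3.14 (Amy1). In IR_iEV_30d against IR_30d they were -4.22 to 7.57 (Dcpp1), -0.67 to 11.36 (Dcpp2), -1.81 to 9.58 (Dcpp3), -3.54 to 5.30 (Bpifa2) and -1.75 to 2.70 (Amy1). In IR_iEV_30d against NT they were -5.68 to 8.25 (Dcpp1), -7.43 to 12.85 (Dcpp2), -6.77 to 11.70 (Dcpp3), -6.04 to 7.88 (Muc19), -1.38 to 9.25 (Bpifa2) and -0.00 to 3.76 (Amy1), and in IR_iEV_30d against IR_iEV_4d -9.43 to 0.22 (Dcpp1). For the difference between the days they were -3.94 to 7.85 (Dcpp1), -0.06 to 11.97 (Dcpp2), -1.25 to 10.14 (Dcpp3), -3.83 to 5.0 (Bpifa2) and -2.18 to 2.27 (Amy1).

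No pairing by replicate number was seen, although 3 libraries per group are too few to exclude it. The deviations of libraries that shared a number correlated above 0.1 in 6 of 30 pairs. Over all 30 the correlations ran from -0.36 to 0.29. With the number as a block, 0 members passed, and the changes in IR_iEV_4d against IR_4d were 2.60, 4.85, 3.90 and 3.05 (Dcpp1, Dcpp2, Dcpp3, Muc19), and the difference between the days was -0.06 (Bpifa2). Few reads limited precision in the libraries low for Muc19, which held 6 to 29 Muc19 reads. Their total counts were not low throughout, since NT replicate 3 had the highest of all, 52201098. Elsewhere 3 libraries per group and their spread set the precision.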
